A study of Homo sapiens with 17 samples.

Results

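Aminoacyl-tRNA synthetases are the enzymes that attach each amino acid to its tRNA and so supply the ribosome with charged tRNAs. Most amino acids have 1 enzyme for the cytosol and another, encoded by a separate nuclear gene, for the mitochondrial matrix. Several cytosolic enzymes sit in a large multisynthetase complex, and a number of cytosolic synthetase genes are known targets of ATF4, the transcription factor of the amino acid response. The members were taken by gene symbol, as every gene of the deposited table whose name has the form of a synthetase (1 amino acid letter followed by ARS or ARS2) together with EPRS, FARSA and FARSB. The rule used no measured value and matched 36 of the 9699 genes in the table, of which 35 are described, 20 cytosolic and 15 mitochondrial (names ending in 2). GARS and KARS were counted as cytosolic, although each is known to encode both a cytosolic and a mitochondrial form. SARS2 was not analysed here.

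The samples were BJ cells, human foreskin fibroblasts immortalized with hTERT, profiled by RNA-Seq (9 samples, mRNA level) and by Ribo-Seq (8 samples, sequencing of ribosome-protected fragments). All groups carried hTERT. The states were proliferation under normal culture, quiescence after serum depletion, 5 days of oncogenic RASG12V (pre-senescent), 14 days of RASG12V (senescent), and neoplastic transformation by RASG12V in cells with stable p53 and p16INK4A knockdown and SV40 small-T. The RASG12V of the first 2 RAS states was a tamoxifen-inducible construct switched on with 4-OHT, so both of these and the transformed state come from engineered derivatives of 1 line.

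Values were deposited as FPKM, a read count scaled to transcript length and to library size, with 1 column per state, assay and sequencing run: proliferating, quiescent and pre-senescent from run 1, and proliferating, senescent and transformed from run 2. The quiescent column and the run 1 proliferating column each pool 2 samples in both assays, and the pre-senescent RNA column does too. No column gives a replicate, so no spread between replicates, no standard error and no p-value can be given for any value, and a difference is described by its size. A gene is called higher or lower here when it lies past 1.5-fold (0.58 on the log2 scale) of the proliferating column of its own run. Counts of synthetases past 1.5-fold of the proliferating column of their own run are set beside the share of all genes past the same fold. No such share is given for counts against the other run's column, against both columns or at other cut-offs. The deposited table does not give the depth of the libraries, and counting error was not estimated here. An FPKM is a share of a library, and fewer cells or less total RNA per cell cannot be told apart from it.

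The 3 proliferation markers in the table were lowest in senescence, with a median RNA log2 ratio of -4.63 over proliferating cells of run 2. The arrest marker CDKN1A had RNA ratios over its run's control of 0.67 in quiescence, 0.40 in pre-senescence, 2.25 in senescence and -1.10 in transformation. Over the proliferating column of run 2 the quiescent and pre-senescent ratios were -0.42 and -0.68. CDKN1A thus lay higher against either control in the senescent column only. Of the 9 fibroblast markers, 9 were in the table, against 0 of 4 epithelial and 0 of 3 endothelial markers, and of 3 blood markers the table held CD14, at 1.00 to 1.67 FPKM in the RNA columns. The fibroblast markers did not hold their level in every state. Over the control of their own run, those past 1.5-fold lower in RNA numbered 0 in quiescence and 7 in pre-senescence (median log2 ratio -1.31). In senescence they numbered 8 (median -2.45) and in transformation 6 (median -0.86). Over all genes 8.95%, 6.76%, 22.6% and 11.2% were lower, in the same order. GEO's condition field for the senescent Ribo-Seq sample and for the proliferating Ribo-Seq sample of run 2 is the reverse of their titles. Their columns were used by title: the proliferation gene MKI67 was at 43.02 FPKM in the Ribo-Seq column titled proliferating and at 1.00, the lowest value in the table, in the one titled senescent, as in the RNA columns of the same states (43.97 and 1.00). In pre-senescent RNA MKI67 was still at 37.01, near the quiescent 32.76. CDKN2A, the gene of p16INK4A, was at 12.64 FPKM of RNA in the transformed and 6.75 in the proliferating column of run 2, against the direction of the p16INK4A knockdown, while its Ribo-Seq level was 5.51 and 8.92, in that direction. HRAS RNA was high in both proliferating columns (2415.28 and 1283.52) and lowest in the transformed one (311.51), so its level did not separate RAS states from controls.

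The promoters of the cytosolic enzymes are shown first, because the amino acid response is known to act through a short element, and this sets what is known of a member's promoter beside its levels. RefSeq windows on GRCh38.p14, from 250 bases before to 50 after the gene start, were matched for 29 of the 35 synthetases. The letters TGATGNAA, the core of the C/EBP-ATF response element, were searched on both strands. A gene was counted once if any of its windows held them. They were found for 7 of 16 cytosolic enzymes (43.8%), for 1 of 13 mitochondrial enzymes (7.69%) and for 4.46% of 27305 RefSeq genes. The matches of AARS and YARS2 began 187 and 197 bases before the gene start (positions -187 and -197), and the others lay between positions -33 and 15. Below, 30 bases around each match are printed 5′ to 3′ on the gene's strand, with the match, or its reverse complement, in capitals.
AARS (chr16:70289675-70289704, minus strand): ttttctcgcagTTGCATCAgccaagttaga
CARS (chr11:3057407-3057436, minus strand): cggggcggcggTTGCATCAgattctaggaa
GARS (chr7:30594834-30594863, plus strand): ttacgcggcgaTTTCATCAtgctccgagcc
IARS (chr9:92293692-92293721, minus strand): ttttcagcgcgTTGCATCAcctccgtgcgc
MARS (chr12:57488053-57488082, plus strand): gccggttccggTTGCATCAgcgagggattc
NARS (chr18:57621804-57621833, minus strand): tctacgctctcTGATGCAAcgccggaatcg
TARS (chr5:33440956-33440985, plus strand): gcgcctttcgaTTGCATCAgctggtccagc
YARS2 (chr12:32756076-32756105, minus strand): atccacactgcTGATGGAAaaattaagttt
Such a match is a description of the letters, not a site of binding. The letters CACGTG, an E-box, were found for 3 of 13 mitochondrial enzymes (CARS2, EARS2 and MARS2), 1 of 16 cytosolic enzymes (IARS) and 8.77% of RefSeq genes. The starts of HARS and HARS2 lie 85 bases apart on opposite strands of chromosome 5, so that their windows share 184 bases.

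All 35 synthetases passed the filter on low values (a mean of at least 2 FPKM over the 6 columns of an assay), and none of their 420 values was at the authors' floor of 1 FPKM. The cytosolic enzymes were expressed well above the mitochondrial ones. Mean RNA level over the 6 columns ran from 34.3 to 151 FPKM among the cytosolic enzymes (median 71.0) and from 2.49 to 47.3 among the mitochondrial ones (median 9.54). GARS, the glycine enzyme, was the most abundant, and PARS2, the mitochondrial proline enzyme, the least. The mitochondrial IARS2, at a mean of 47.3, lay above the cytosolic DARS, HARS, LARS and FARSB, so the classes overlapped at their edges.

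Translation efficiency (TE), the log2 of Ribo-Seq over RNA-Seq FPKM in the same state, also differed between the classes. In the proliferating column of run 1 its median was 0.60 among the cytosolic and 0.52 among the mitochondrial enzymes, against 0.40 over all genes. In the senescent column the medians were 0.72 and -0.06, against 0.36 over all genes. HARS, the histidine enzyme, had the highest TE among the synthetases in both proliferating columns (1.98 and 1.48) and AARS, the alanine enzyme, in the senescent one (1.51).

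The proliferating columns of the 2 runs differed for this family, which bears on every ratio below. Run 2 over run 1, the median RNA log2 ratio was -0.45 for the cytosolic and -0.25 for the mitochondrial enzymes, and 18 of 20 and 13 of 15 were below 0. Past 1.5-fold, 0 cytosolic enzymes were higher and 6 lower (AARS, FARSB, MARS, TARS, VARS and YARS), with 0 higher and 4 lower among the mitochondrial ones, against 11.7% of all genes higher and 14.5% lower. YARS, the tyrosine enzyme, was at 81.02 FPKM in run 1 and 40.68 in run 2, and MARS, the methionine enzyme, at 110.50 and 56.36. In the Ribo-Seq columns the corresponding medians were -0.45 and -0.66. Culture, library preparation and run cannot be told apart here, so each state is compared with the proliferating column of its own run, and the ratio to the other one is given where it changes the picture.

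Quiescence was the first comparison, serum depletion against proliferation in run 1. The cytosolic enzymes were spread to both sides of 0, with a median RNA log2 ratio of 0.14, while 13 of 15 mitochondrial enzymes were below 0, with a median of -0.17 (all genes: -0.01). Over the proliferating column of run 2 these medians were 0.39 and -0.02, so the mitochondrial class then lay close to level. Past 1.5-fold, WARS was higher and FARSB and VARS were lower among the cytosolic enzymes, and MARS2 was lower among the mitochondrial ones, against 10.6% of all genes higher and 8.95% lower. The cytosolic counts, 1 and 2 of 20, are thus near or under the share over all genes.

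WARS, the tryptophan enzyme and a gene known to respond to interferon, had the largest cytosolic RNA ratio in quiescence. Its RNA levels in run 1 were 67.76 FPKM in proliferating, 125.11 in quiescent and 63.62 in pre-senescent cells, and in run 2 they were 50.78 in proliferating, 70.11 in senescent and 45.66 in transformed cells. The quiescent column was the highest of the 6, also in Ribo-Seq (193.38 FPKM, with the others between 64.27 and 141.00). The log2 ratio over proliferating cells was 0.88 for RNA, 0.46 for Ribo-Seq and -0.43 for TE. WARS was the one synthetase past 1.5-fold higher than both proliferating columns in quiescent RNA, although 11 synthetases were past 1.5-fold higher when the column of run 2 was used alone. Among 7 interferon genes, 3 were past 1.5-fold higher and 1 lower in quiescence (ISG15 1.27, GBP1 -0.90), against 10.6% and 8.95% of all genes. In transformed cells 4 of 7 were higher, against 12.6% of all genes, and WARS had a log2 ratio of -0.15. One of the 4, CXCL10, was at the floor of 1.00 FPKM in 4 of the 6 RNA columns and passed the filter through its transformed level of 36.42. The share of an interferon response in the WARS level was not tested.

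AARS lay highest in quiescence in both assays. Its RNA levels were 95.15 FPKM in proliferating, 137.44 in quiescent and 75.96 in pre-senescent cells of run 1, and 57.80, 33.57 and 44.04 in proliferating, senescent and transformed cells of run 2. Its Ribo-Seq levels in the same order were 214.06, 333.00 and 166.57 in run 1 and 116.01, 95.37 and 96.71 in run 2. The quiescent log2 ratio was 0.53 for RNA, short of 1.5-fold, and 0.64 for Ribo-Seq. AARS was also the synthetase with the widest RNA range, 4.09-fold between its highest and lowest column.

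The lower genes of quiescence included both chains of the phenylalanine enzyme. FARSB, the beta chain, was at 42.28 FPKM of RNA in proliferating and 26.92 in quiescent cells (log2 ratio -0.65), and FARSA, the alpha chain, at 82.42 and 55.48 (-0.57). Their Ribo-Seq ratios were -0.93 and -0.64, both past 1.5-fold. The 2 chains form 1 enzyme, and both lay lower in both assays. Against the proliferating column of run 2, where FARSB was at 25.60 and FARSA at 55.45 FPKM, the quiescent RNA lay level.

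VARS, the valine enzyme, had unequal ratios in the 2 assays. Its RNA went from 75.22 to 47.51 FPKM in quiescence (log2 ratio -0.66), while its Ribo-Seq level went from 92.51 to 81.55 (-0.18). Its TE ratio of 0.48 was the highest among the cytosolic enzymes in quiescence. In the RNA columns of run 2 VARS was at 41.29 in proliferating, 47.65 in senescent and 45.58 in transformed cells, close to the quiescent level, and its pre-senescent level was 69.08.

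In the Ribo-Seq columns of quiescence, AARS was past 1.5-fold higher and FARSA, FARSB and KARS lower, with a cytosolic median of -0.01, against 18.3% of all genes higher and 22.7% lower. Among the mitochondrial enzymes 0 were higher and 4 lower (HARS2, MARS2, NARS2 and WARS2), with a median of -0.35 (all genes: -0.08). TE was below 0 for 17 of 20 cytosolic enzymes but past 1.5-fold for none, with a median of -0.19, against 10.9% of all genes higher and 13.4% lower and a median of -0.06. Of the mitochondrial enzymes HARS2, NARS2 and WARS2 were past 1.5-fold lower in TE.

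Other parts of the translation machinery set the scale of these TE values. In quiescence the median TE ratio was -1.10 over 79 cytosolic ribosomal proteins, 74 of them past 1.5-fold lower, and -0.88 over 5 cytosolic elongation factors, all 5 past 1.5-fold lower, while 4 mitochondrial elongation factors had -0.25. The lowest cytosolic synthetase, WARS at -0.43, lay above both cytosolic medians. In senescence the ribosomal proteins had a median TE ratio of -0.65, the cytosolic elongation factors of -0.13 and the cytosolic synthetases of -0.06, so the elongation factors then lay near the synthetases. The mRNAs of ribosomal proteins and several elongation factors are known to carry a 5′ TOP tract, which links their translation to mTOR.

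**Figure D1:**
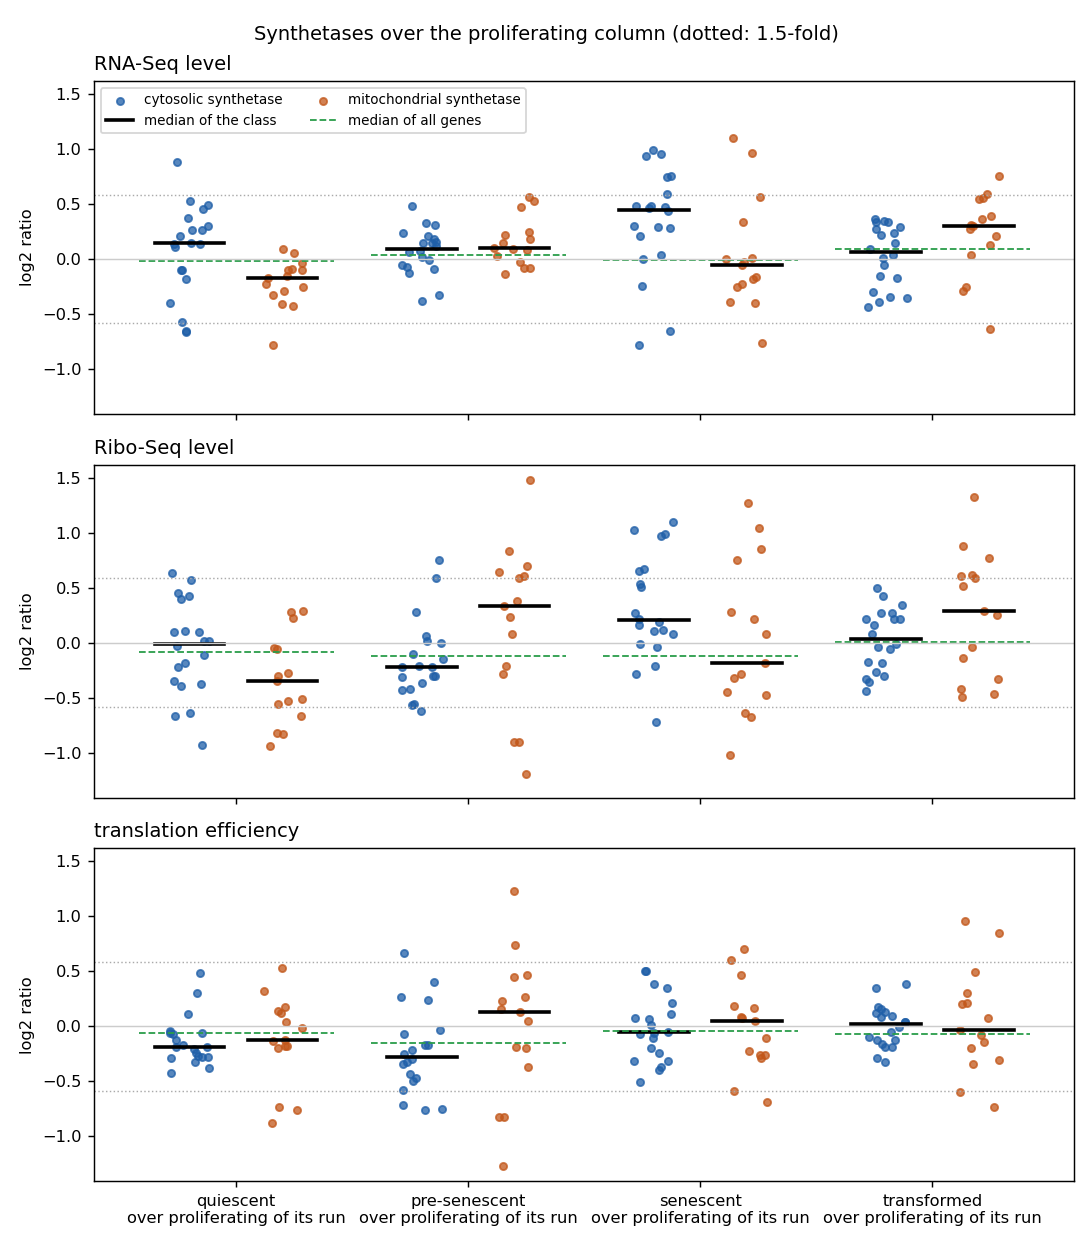
Log2 ratio of each synthetase to the proliferating column of the same run for RNA-Seq, Ribo-Seq and translation efficiency; each point is 1 gene, black bars are class medians, green dashed lines the median of all genes and dotted lines 1.5-fold. The cytosolic RNA median stands at 0.45 in the senescent column and within 0.14 of 0 in the other 3, and the mitochondrial points spread more widely in Ribo-Seq than in RNA.

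After 5 days of RASG12V the RNA of the family lay close to proliferating cells. No synthetase was past 1.5-fold in pre-senescent RNA (0 of 35), against 5.59% of all genes higher and 6.76% lower. The medians were 0.09 and 0.10 for the cytosolic and mitochondrial enzymes (all genes: 0.04), and the ratios ran from -0.38 for MARS to 0.56 for CARS2, the mitochondrial cysteine enzyme.

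The Ribo-Seq and TE values were more scattered at this time. In Ribo-Seq, IARS and QARS were past 1.5-fold higher and DARS lower among the cytosolic enzymes, with a median of -0.22, and among the mitochondrial ones 6 were higher (CARS2, FARS2, MARS2, PARS2, RARS2 and TARS2) and 3 lower (EARS2, NARS2 and WARS2), with a median of 0.33. Over all genes 15.7% were higher and 23.2% lower, with a median of -0.12. In TE, QARS was higher and DARS, HARS and NARS were lower in the cytosolic class, and PARS2 and RARS2 were higher and EARS2, NARS2 and WARS2 lower in the mitochondrial class, against 13.7% of all genes higher and 22.6% lower. The cytosolic TE median was -0.28 and the mitochondrial 0.13 (all genes: -0.15). The pre-senescent Ribo-Seq column holds 1 sample, while the RNA column pools 2.

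DARS, the cytosolic aspartate enzyme, and WARS2, the mitochondrial tryptophan enzyme, had the lowest pre-senescent TE ratios to proliferating cells of their classes. DARS RNA was 49.69 FPKM in proliferating and 54.84 in pre-senescent cells, while its Ribo-Seq level was 94.57 and 61.68, which gave a TE ratio of -0.76. WARS2 RNA was 5.92 and 6.26 FPKM, while its Ribo-Seq level was 11.31 and 4.95, a TE ratio of -1.27. For both genes the ratio was past 1.5-fold lower against either proliferating column.

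QARS, the glutamine enzyme, went the other way in pre-senescent cells, with RNA of 74.42 and 70.65 FPKM and Ribo-Seq of 91.36 and 137.25, a TE ratio of 0.66. PARS2 had the highest TE ratio of all, 1.23, from very low levels. Its RNA was 2.63 FPKM in proliferating, 2.57 in quiescent and 3.13 in pre-senescent cells of run 1, and 2.07, 1.85 and 2.71 in proliferating, senescent and transformed cells of run 2. Its Ribo-Seq level was 1.30, 1.59 and 3.63 in run 1 and 2.34, 1.71 and 3.52 in run 2. The proliferating Ribo-Seq value of run 1 is close to the floor of 1 FPKM, and with it a TE of -1.02 is the lowest of any synthetase in that column. Over the proliferating column of run 2 the pre-senescent TE ratio of PARS2 was 0.04.

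Senescence at 14 days had the highest number of synthetase RNAs past 1.5-fold of their own run's control, 11 of 35. With the other proliferating column the pre-senescent count was 15 and the quiescent 11. The cytosolic enzymes had a median RNA log2 ratio of 0.45, with 17 of 20 above 0, while the mitochondrial ones had a median of -0.05, with 5 above and 9 below 0 (all genes: -0.01). Past 1.5-fold, CARS, GARS, HARS, IARS, TARS and YARS were higher and AARS and DARS lower in the cytosolic class, and CARS2 and MARS2 were higher and VARS2 lower in the mitochondrial class. Over all genes 18.5% were higher and 22.6% lower, the largest RNA shares of any state over its own run's control. The 11 of 35 synthetases past 1.5-fold are under the sum of these shares. By direction, 6 of 20 cytosolic enzymes higher is above the background share, while 2 of 20 lower is under it. Among the mitochondrial enzymes, 2 of 15 higher and 1 of 15 lower are under it. Of the 6, IARS alone was past 1.5-fold higher than both proliferating columns, at 1.504-fold over that of its own run. GARS fell just short, at 1.494-fold over run 1 and 1.94-fold over run 2. At 2 local SDs, a call set by the spread of genes of like level, 0 synthetases were called.

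GARS had the highest level of the family in senescence. Its RNA was 144.09, 197.74 and 156.16 FPKM in proliferating, quiescent and pre-senescent cells of run 1, and 110.99, 215.33 and 82.34 in proliferating, senescent and transformed cells of run 2. The Ribo-Seq columns gave 181.55, 238.96 and 156.75 in run 1 and 160.36, 325.34 and 127.25 in run 2. The senescent column was the highest of 6 in both assays, with log2 ratios of 0.96 for RNA and 1.02 for Ribo-Seq over its own control. The transformed column was the lowest of 6 in both assays. Over the proliferating column of run 1 the senescent log2 ratios were 0.58 for RNA, just short of 1.5-fold, and 0.84 for Ribo-Seq.

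CARS, the cytosolic cysteine enzyme, had the largest cytosolic RNA ratio in senescence, 0.99. Its RNA was 48.35, 68.04 and 46.71 FPKM in proliferating, quiescent and pre-senescent cells of run 1, and 34.26, 68.13 and 43.39 in proliferating, senescent and transformed cells of run 2. Its senescent level was the same as its quiescent one, and the proliferating column of run 2 was its lowest. Its ribosome footprints stood at 74.31, 99.87 and 63.71 in run 1 and 41.64, 89.34 and 58.69 in run 2.

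YARS shows how far the choice of control carries. Its RNA was 81.02, 93.49 and 84.68 FPKM in proliferating, quiescent and pre-senescent cells of run 1, and 40.68, 77.72 and 51.75 in proliferating, senescent and transformed cells of run 2. The senescent log2 ratio was 0.93 over its own control and -0.06 over that of run 1. Its Ribo-Seq level was 143.23, 145.15 and 106.10 in run 1 and 93.00, 134.49 and 108.24 in run 2.

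IARS, the isoleucine enzyme, was highest in senescence against every other column. Its RNA was 64.72, 77.80 and 90.70 FPKM in proliferating, quiescent and pre-senescent cells of run 1, and 87.07, 130.98 and 77.19 in proliferating, senescent and transformed cells of run 2. For Ribo-Seq the levels were 50.09, 74.13 and 84.37 in run 1 and 92.11, 180.39 and 106.79 in run 2. The senescent RNA log2 ratio was 0.59 over the control of its run, just past 1.5-fold. IARS was the cytosolic enzyme past 1.5-fold higher than both proliferating columns, with GARS just short.

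AARS and DARS were the cytosolic enzymes on the low side. AARS RNA, 33.57 FPKM in senescent cells, was the lowest of its 6 columns, with a log2 ratio of -0.78, while its Ribo-Seq ratio was -0.28 and its TE ratio 0.50. DARS RNA was 49.69, 53.60 and 54.84 FPKM in proliferating, quiescent and pre-senescent cells of run 1, and 47.40, 30.05 and 38.46 in proliferating, senescent and transformed cells of run 2. Its log2 ratio in senescence was -0.66 for RNA and -0.72 for Ribo-Seq. Both RNAs were past 1.5-fold lower than either proliferating column.

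VARS2, the mitochondrial valine enzyme, was lowest in the senescent column of both assays. Its RNA was 11.51, 10.74 and 11.33 FPKM in proliferating, quiescent and pre-senescent cells of run 1, and 6.99, 4.13 and 8.10 in proliferating, senescent and transformed cells of run 2. Its Ribo-Seq level was 10.68, 8.82 and 9.23 in run 1 and 4.52, 2.23 and 5.52 in run 2. The log2 ratio in senescence was -0.76 for RNA and -1.02 for Ribo-Seq.

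CARS2 was the mitochondrial enzyme with the opposite direction. Its RNA was 35.26, 28.07 and 52.06 FPKM in proliferating, quiescent and pre-senescent cells of run 1, and 29.86, 64.05 and 24.41 in proliferating, senescent and transformed cells of run 2. The Ribo-Seq columns gave 30.15, 21.20 and 53.62 in run 1 and 17.95, 43.19 and 12.76 in run 2. In both assays the pre-senescent and senescent columns lay above every other column, and the transformed column was the lowest for Ribo-Seq and for RNA. The log2 ratio in senescence was 1.10 for RNA and 1.27 for Ribo-Seq, and in pre-senescence 0.56 and 0.83.

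MARS2, the mitochondrial methionine enzyme, was low throughout. Its RNA was 4.72, 2.74 and 6.56 FPKM in proliferating, quiescent and pre-senescent cells of run 1, and 2.52, 4.91 and 4.26 in proliferating, senescent and transformed cells of run 2. Its ribosome footprints stood at 6.76, 4.26 and 10.99 in run 1 and 4.00, 7.22 and 6.14 in run 2. Its RNA log2 ratios of 0.96 in senescence and 0.76 in transformation rest on a proliferating value that was the lowest of the 6. Over the proliferating column of run 1 the transformed ratio was -0.15.

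**Figure D2:**
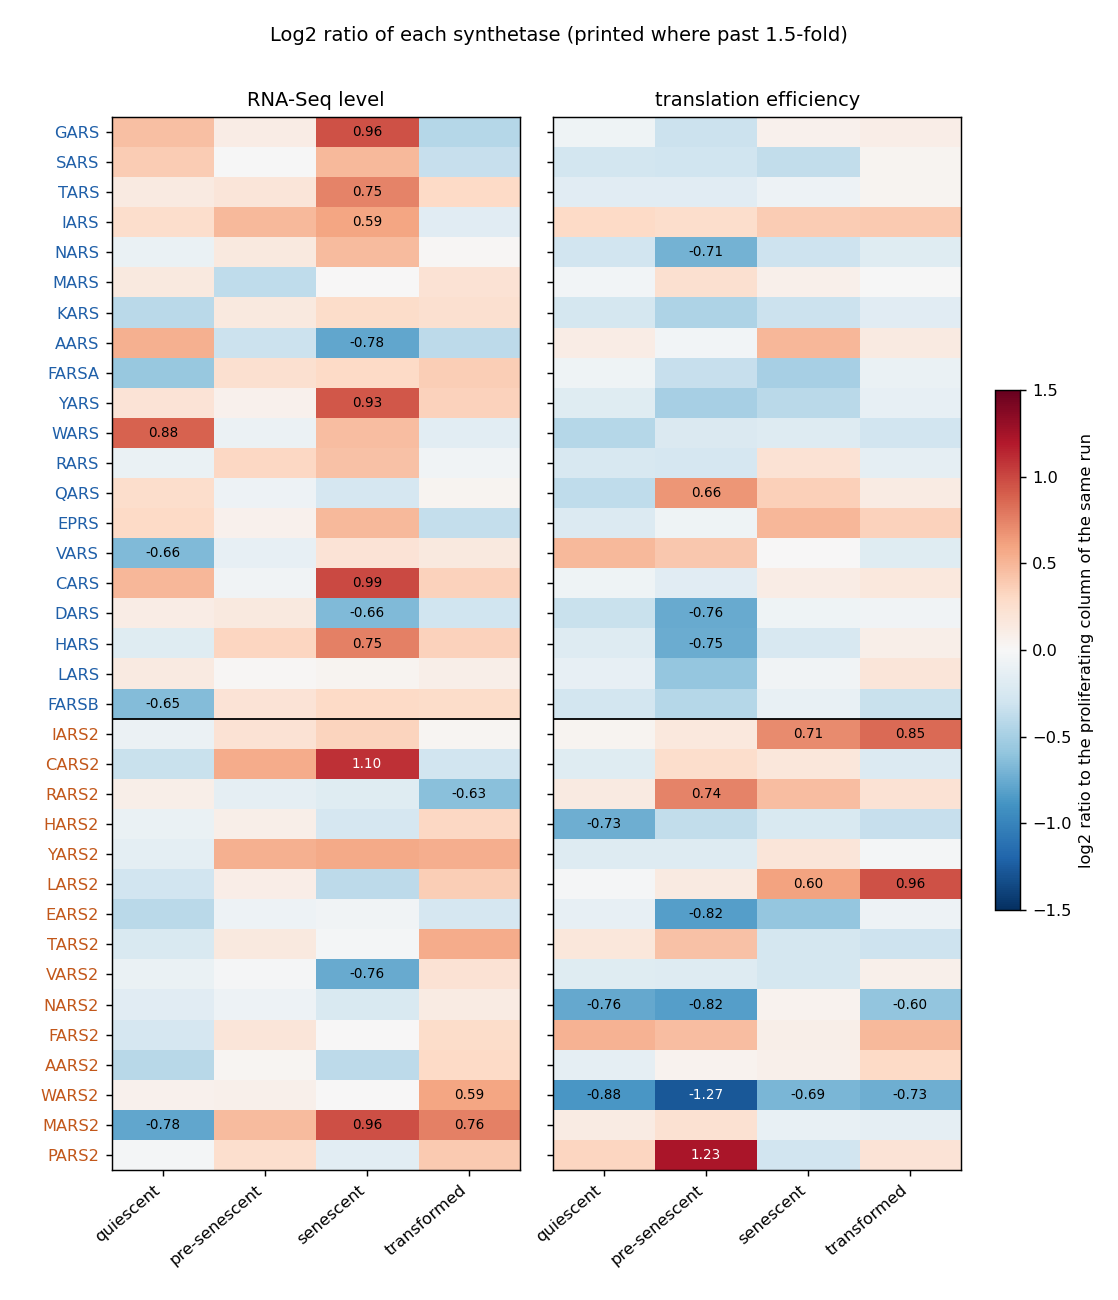
Log2 ratio of every synthetase (rows; cytosolic above the line, mitochondrial below, each ordered by mean RNA level) to the proliferating column of its run, for RNA-Seq and translation efficiency, on a colour scale centred on 0 with values printed where past 1.5-fold. In RNA the senescent column holds 11 printed values and the pre-senescent column none, and in translation efficiency most printed values belong to mitochondrial enzymes.

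In the Ribo-Seq columns of senescence CARS, EPRS, GARS, IARS, RARS and TARS were past 1.5-fold higher and DARS lower among the cytosolic enzymes, with a median of 0.20, against 20.8% of all genes higher and 29.6% lower and a median of -0.12. Among the mitochondrial enzymes CARS2, IARS2, MARS2 and YARS2 were higher and EARS2, VARS2 and WARS2 lower, with a median of -0.18. EPRS, which charges both glutamate and proline, went from 107.55 to 213.17 FPKM of Ribo-Seq (log2 ratio 0.99) with an RNA ratio of 0.49. TE ratios in senescence were past 1.5-fold for none of the 20 cytosolic enzymes and, among the mitochondrial ones, higher for IARS2 and LARS2 and lower for WARS2, against 13% of all genes higher and 18.1% lower. The cytosolic TE median was -0.06 and the mitochondrial 0.05 (all genes: -0.05).

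The senescent values depended on the proliferating column they were set against. Over the proliferating column of run 1 the median RNA log2 ratio was -0.03 for the cytosolic and -0.38 for the mitochondrial enzymes, in place of 0.45 and -0.05. Against both columns, IARS and CARS2 were past 1.5-fold higher, and AARS, DARS and VARS2 lower. In Ribo-Seq EPRS, GARS, IARS and RARS were higher than both, and DARS, EARS2, VARS2 and WARS2 were lower than both. Against either column the mitochondrial median thus lay below the cytosolic one.

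**Figure D3:**
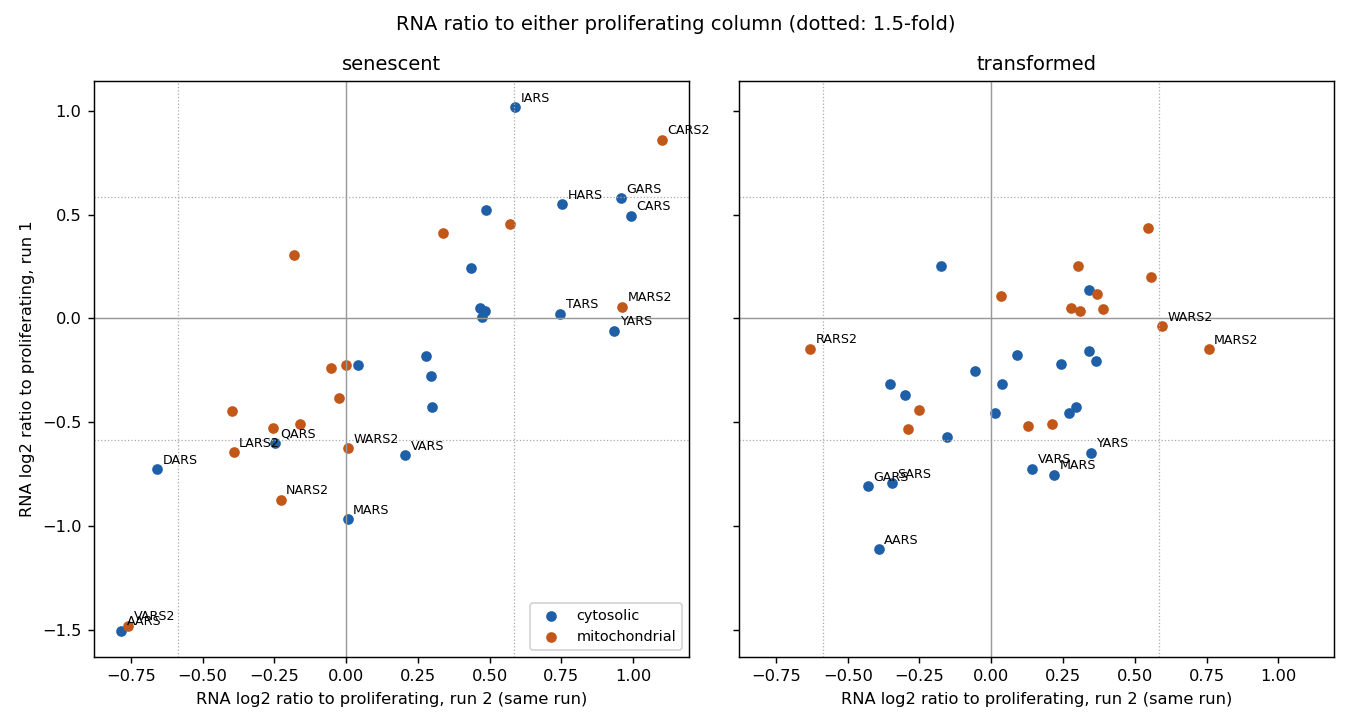
RNA log2 ratio of each synthetase in senescent and in transformed cells to the proliferating column of its own run (horizontal axis) and of the other run (vertical axis), with dotted lines at 1.5-fold. In the senescent panel IARS and CARS2 lie past the lines at the upper right and VARS2, AARS and DARS at the lower left, and in the transformed panel no synthetase lies past both lines.

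Transformed cells carry RASG12V without the arrest. Their cytosolic synthetase RNAs lay nearer than the senescent ones to the proliferating column of the same run. The mitochondrial RNA median did not, at -0.05 in senescent and 0.30 in transformed cells. No cytosolic enzyme was past 1.5-fold in RNA, Ribo-Seq or TE, with medians of 0.06, 0.03 and 0.02. Among the mitochondrial enzymes MARS2 and WARS2 were higher and RARS2, the arginine enzyme, lower in RNA, with a median of 0.30 and 12 of 15 above 0, against 12.6% of all genes higher and 11.2% lower and a median of 0.09. RARS2 RNA was 30.08 FPKM in proliferating and 19.43 in transformed cells (log2 ratio -0.63).

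In the Ribo-Seq columns of transformed cells 6 mitochondrial enzymes were past 1.5-fold higher (AARS2, FARS2, IARS2, LARS2, MARS2 and PARS2) and 0 lower, with a median of 0.29, against 12.9% of all genes higher and 15.7% lower. In TE IARS2 and LARS2 were higher and NARS2 and WARS2 lower, against 4.39% of all genes higher and 10.1% lower. The proliferating Ribo-Seq column they are set against had a mitochondrial median of 8.74 FPKM, and that of run 1 had 13.6. Against both proliferating columns, FARS2 and PARS2 were the mitochondrial enzymes past 1.5-fold higher in transformed Ribo-Seq, and the mitochondrial median over run 1 was -0.48.

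LARS2, the mitochondrial leucine enzyme, and IARS2, the isoleucine one, show this most plainly. LARS2 RNA was 12.52, 10.26 and 13.46 FPKM in proliferating, quiescent and pre-senescent cells of run 1, and 10.51, 8.01 and 13.57 in proliferating, senescent and transformed cells of run 2. Its Ribo-Seq level was 20.12, 16.33 and 23.70 in run 1 and 7.62, 8.82 and 19.13 in run 2. The transformed TE log2 ratio was 0.96 over the control of its run and -0.19 over that of run 1. IARS2 RNA lay between 40.67 and 57.50 FPKM in all 6 columns. For Ribo-Seq the levels were 41.11, 39.67 and 53.31 in run 1 and 25.96, 53.50 and 47.73 in run 2, so the proliferating column of run 2 was the low one.

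WARS2 was the synthetase with a TE past 1.5-fold lower in all 4 comparisons with the control of its run, at -0.88 in quiescent, -1.27 in pre-senescent, -0.69 in senescent and -0.73 in transformed cells. Its RNA was 5.92, 6.17 and 6.26 FPKM in proliferating, quiescent and pre-senescent cells of run 1, and 3.82, 3.84 and 5.77 in proliferating, senescent and transformed cells of run 2. In Ribo-Seq it was at 11.31, 6.41 and 4.95 in run 1 and 8.74, 5.46 and 7.96 in run 2. In each run the proliferating column had the highest Ribo-Seq level. Pairs of these ratios share a control column, so the 4 values are not independent of one another. Over the proliferating column of the other run the TE ratios were -1.14 and -1.53 in quiescent and pre-senescent cells, and -0.43 and -0.47 in senescent and transformed cells, short of 1.5-fold.

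NARS2 and EARS2, the mitochondrial asparagine and glutamate enzymes, also had low TE ratios. NARS2 RNA was 9.94, 8.82 and 9.40 FPKM in proliferating, quiescent and pre-senescent cells of run 1, and 6.36, 5.43 and 6.95 in proliferating, senescent and transformed cells of run 2. Its Ribo-Seq level was 15.94, 8.33 and 8.52 in run 1 and 6.39, 5.64 and 4.62 in run 2. The run 1 proliferating Ribo-Seq value thus stood above all others, and the TE ratio was -0.76 in quiescent, -0.82 in pre-senescent and -0.60 in transformed cells. EARS2 RNA lay between 9.39 and 12.73 FPKM in all 6 columns, and its Ribo-Seq level was 20.28, 14.04 and 10.86 in run 1 and 14.26, 9.18 and 11.37 in run 2. Its TE ratio was -0.82 in pre-senescent and -0.58 in senescent cells, the latter just short of 1.5-fold.

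Senescent and transformed cells both carry RASG12V and were sequenced in the same run, so they can be set against each other directly. Senescent over transformed, the median RNA log2 ratio was 0.43 for the cytosolic and -0.36 for the mitochondrial enzymes. In all 7 cytosolic enzymes were past 1.5-fold higher in senescence (CARS, EPRS, GARS, IARS, SARS, WARS and YARS) and 0 lower, while among the mitochondrial ones CARS2 was higher and AARS2, LARS2, VARS2 and WARS2 were lower. Over all genes 18.2% were higher and 26.7% lower. GARS and CARS2 had log2 ratios of 1.39 each.

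For 12 amino acids a cytosolic and a mitochondrial enzyme could be paired by symbol, differing in the final 2. FARS2, EARS2 and PARS2 were left out of these pairs, because their cytosolic counterparts are FARSA with FARSB and the bifunctional EPRS. The cytosolic RNA ratio was the higher of the 2 for 9 of 12 amino acids in quiescence, 5 in pre-senescence, 9 in senescence and 3 in transformation. The 2 enzymes had ratios of the same sign for 4, 6, 6 and 8 of 12. Across the 12 pairs the ratios in senescence had a Pearson's r of 0.41 and a Spearman's rho of 0.50, and in quiescence of -0.11 and -0.24, over genes that share the same 2 columns and are not independent.

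**Figure D4:**
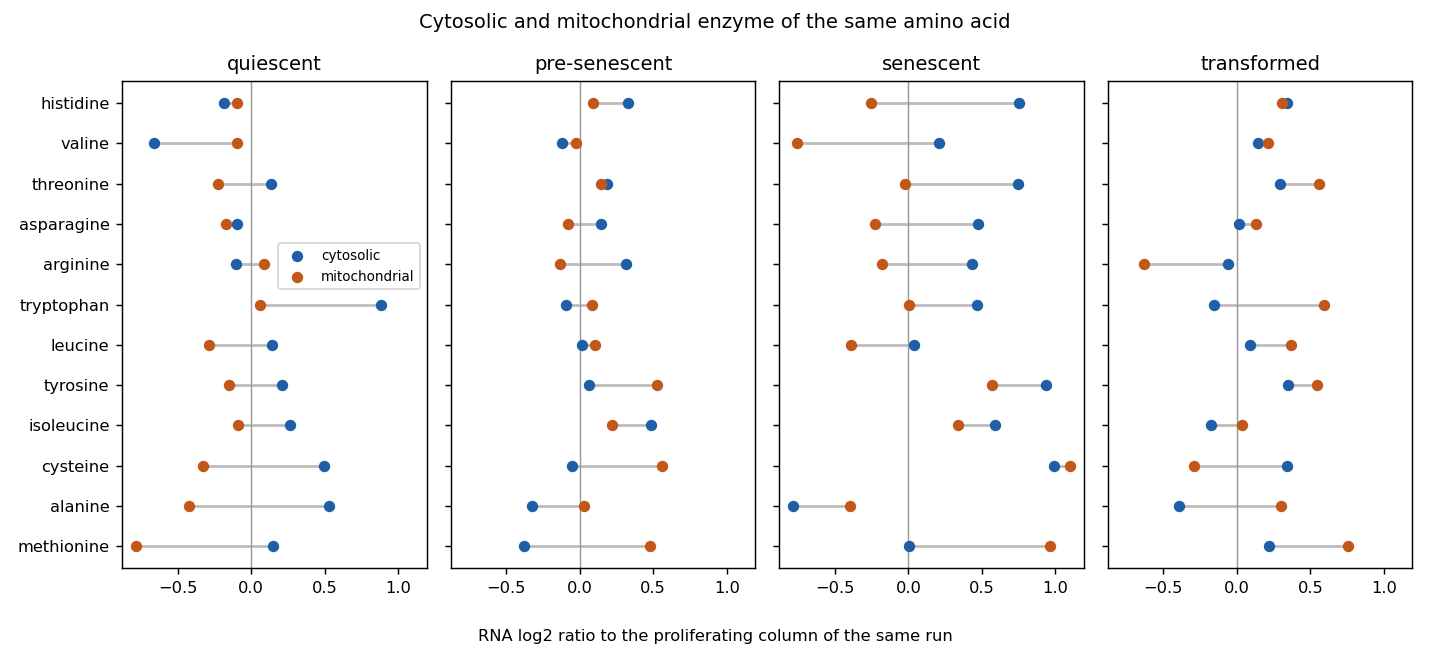
RNA log2 ratio of the cytosolic (blue) and mitochondrial (orange) enzyme of each of 12 amino acids in the 4 comparisons, ordered by their difference in senescence. Blue lies to the right of orange for 9 amino acids in the quiescent and senescent panels and for 3 in the transformed one.

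Histidine, valine and methionine had the largest differences between their 2 enzymes, all in senescence. HARS RNA was 37.08, 32.65 and 46.49 FPKM in proliferating, quiescent and pre-senescent cells of run 1, and 32.22, 54.30 and 40.83 in proliferating, senescent and transformed cells of run 2, while HARS2 was 15.67, 14.67 and 16.66 in run 1 and 12.95, 10.86 and 16.06 in run 2. HARS was thus at its highest and HARS2 at its lowest in the senescent column (log2 ratios 0.75 and -0.25), although the 2 genes are divergent neighbours whose promoter windows overlap. Their Ribo-Seq levels in senescent over proliferating cells of run 2 were 128.07 over 90.09 for HARS and 14.35 over 20.00 for HARS2.

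For valine, the senescent ratio was 0.21 for VARS and -0.76 for VARS2. For methionine the order was turned round, with 0.01 for MARS and 0.96 for MARS2. MARS RNA was 110.50, 122.46 and 84.79 FPKM in proliferating, quiescent and pre-senescent cells of run 1, and 56.36, 56.56 and 65.58 in proliferating, senescent and transformed cells of run 2, and its Ribo-Seq level was 144.64, 155.76 and 130.91 in run 1 and 87.99, 92.85 and 102.03 in run 2. All 3 columns of run 1 lay above all 3 of run 2 in both assays, so the runs did not overlap for MARS.

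The amino acid response genes gave the background for the ATF4-linked members. Their list of 16 genes had a median RNA log2 ratio of 0.41 in quiescence, -0.18 in pre-senescence, 0.44 in senescence and 0.15 in transformation, with 4, 1, 7 and 4 genes past 1.5-fold higher and 0, 4, 2 and 2 lower. Over all genes 10.6%, 5.59%, 18.5% and 12.6% were higher and 8.95%, 6.76%, 22.6% and 11.2% lower. The list of 16 also differed between the proliferating columns, with a median of -0.81 for run 2 over run 1. Of its genes 12 of 16 were past 1.5-fold lower, against 14.5% of all genes. Over the proliferating column of the other run its medians were therefore 1.20, 0.56, -0.67 and -0.57 in the same order of states, so the direction turned in pre-senescence, senescence and transformation. ATF4 itself had a quiescent log2 ratio of 0.54 for RNA, -0.58 for Ribo-Seq and -1.12 for TE. The 13 synthetases often named as ATF4 targets had medians of 0.27, 0.02, 0.48 and 0.01, and the other 7 cytosolic enzymes of -0.18, 0.21, 0.29 and 0.24. Over the other run's control the 2 groups had senescent medians of 0.02 and -0.28, and transformed medians of -0.57 and -0.25. Over the control of their own run, 11 of the 13 were above 0 in quiescence and 5 of the other 7 below it. Over the proliferating column of run 2 the quiescent medians were 0.83 and 0.07, so the opposite signs held against 1 control only. Of the transporters and enzymes of that response, the cystine transporter gene SLC7A11 had ratios of 0.25, -0.50, 0.86 and 1.34, and PHGDH, the first enzyme of serine synthesis, of 0.53, -0.82, -1.68 and -0.11.

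Grouped by promoter, the 7 cytosolic enzymes with TGATGNAA in the windows printed above had median RNA ratios of 0.27 in quiescence, 0.12 in pre-senescence, 0.59 in senescence and 0.01 in transformation. The 9 with a window and no match had -0.10, 0.15, 0.44 and 0.04. Within the first group the senescent ratios ran from -0.78 for AARS to 0.99 for CARS, and in the second from -0.25 for QARS to 0.75 for HARS, so the groups overlapped widely. WARS, the highest in quiescence, was in the second group.

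The 8 cytosolic members of the multisynthetase complex and the 12 outside it had quiescent median RNA ratios of 0.14 and 0.17 over their own control. Over the proliferating column of run 2 the medians were 0.22 inside and 0.83 outside, so they were alike against 1 control only. In senescence the medians were 0.16 inside and 0.48 outside, or -0.20 and 0.01 over the proliferating column of run 1. Past 1.5-fold higher than their own control were 1 of 8 inside and 5 of 12 outside, beside 18.5% of all genes. IARS was the higher one inside. The structural classes I and II of the catalytic domain had medians of 0.44 and 0.39 in senescence and of 0.21 and 0.01 in quiescence, over 9 and 10 cytosolic enzymes. Over the other run's control the class medians were -0.06 and -0.09 in senescence and 0.62 and 0.27 in quiescence.

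Across the 4 comparisons with proliferating cells, 9 of 20 cytosolic enzymes were never past 1.5-fold in RNA (EPRS, FARSA, KARS, LARS, MARS, NARS, QARS, RARS and SARS) and 16 of 20 never in TE, against 42% and 36% of all genes. Of the mitochondrial enzymes 10 of 15 were never past it in RNA, 7 of 15 never in TE and 0 of 15 never in Ribo-Seq, where 19.2% of all genes were never past it. The mitochondrial mRNAs were 2.49 to 47.3 FPKM in mean RNA level. Whether the larger scatter of their Ribo-Seq ratios goes with level was not tested, nor was the part of counting error in it.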

How the data were processed

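RNA-Seq and Ribo-Seq libraries of BJ fibroblasts were compared between states within a sequencing run. The deposited values are FPKM made by the authors: reads were aligned with Bowtie to hg19 (submitters' processing notes; versions are not given in the sources used here), uniquely mapped reads were counted on 1 transcript per gene, over the whole transcript for RNA-Seq and over the coding sequence for Ribo-Seq, and values under 1 were set to 1. How replicate samples were pooled into a column is not stated. Run membership comes from the study's methods, and the RNA libraries of run 2 were read single-end and those of run 1 paired-end. Uniquely mapped reads understate genes with near-identical copies elsewhere, and no synthetase was checked for such copies.

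Ratios were computed on log2(FPKM) with a pseudocount of 0, and TE as the log2 of Ribo-Seq over RNA-Seq FPKM. Genes with a mean under 2 FPKM over the 6 columns of an assay were left out (both assays for TE), leaving 9203, 9201 and 8984 genes for RNA, Ribo-Seq and TE. With 1 column per state no test was run. Genes were called past 1.5-fold. Named in full (all columns of an assay) were the 8 members with the largest RNA ratio and the 6 with the largest TE ratio. So were the enzymes of the 3 amino acids whose pair differed most, and the highest and lowest expressed member. Other members are given where a count names them. DARS and IARS were given in full after their values were seen. QARS was also added then, for the proliferating and pre-senescent columns of run 1 only. A gene that matches the membership rule is not reported here and was left out of every count and median over the members. The members and gene lists were chosen with earlier results of these data known. Alternatives were a filter of 5 or none, a pseudocount of 1, centring on all genes, 2-fold, a call at 2 local SDs over 501 genes of like level, the proliferating column of the other run, and leaving out GARS and KARS. Scripts were tested on simulated data (Python 3.11.15, numpy 2.4.6, pandas 2.3.3, scipy 1.17.1, matplotlib 3.10.9). Promoter windows are RefSeq's on GRCh38.p14. They are sequence only and were not joined to coordinates of the FPKM table.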

Additional observations from a re-analysis of the deposited data

Results flagged for a closer look

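MARS2 was the synthetase whose RNA lay past 1.5-fold in opposite directions in different states. Its log2 ratio to the proliferating column of the same run was -0.78 in quiescence, 0.96 in senescence and 0.76 in transformation. The difference between these ratios was not tested, because each rests on 1 column per state. The levels behind them were 2.52 to 6.56 FPKM of RNA, and the proliferating columns of the 2 runs themselves stood at 4.72 and 2.52.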

How the results depend on the processing

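No paired analysis was possible because the columns carry no replicate, and leaving out single replicates was not run for the same reason. With no filter, a filter of 5 FPKM, a pseudocount of 1, or without GARS and KARS, the class medians moved by less than the same median differed between the 2 proliferating columns, and centring on all genes moved 1 of them, the pre-senescent cytosolic TE median, to -0.13.

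The proliferating column of the other run moved most of them; the difference between the runs cannot be told apart from culture or library. With it the Ribo-Seq medians, cytosolic then mitochondrial, were 0.24 and 0.38 in quiescence, 0.21 and 1.03 in pre-senescence, -0.17 and -0.86 in senescence, and -0.37 and -0.48 in transformation. The RNA medians were 0.50 and 0.50 in pre-senescence, -0.027 and -0.38 in senescence, and -0.40 and 0.035 in transformation. The TE medians were -0.28 and 0.33 in quiescence and 0.18 and -0.43 in senescence, and the mitochondrial ones 0.35 in pre-senescence and -0.45 in transformation.

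Single genes past 1.5-fold that changed sign with it were, in quiescence, FARSB 0.073, MARS2 0.12 and VARS 0.20 for RNA and FARSA 0.081, MARS2 0.091 and NARS2 0.38 for Ribo-Seq. In pre-senescence they were IARS -0.13 and NARS2 0.42 for Ribo-Seq. In senescence they were YARS -0.060 for RNA, YARS2 -0.33 for Ribo-Seq, and IARS2 -0.030 and LARS2 -0.55 for TE. In transformation they were MARS2 -0.15 and WARS2 -0.037 for RNA, AARS2 -0.92, LARS2 -0.073 and MARS2 -0.14 for Ribo-Seq, and LARS2 -0.19 for TE.

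The number of synthetases past 1.5-fold for RNA, Ribo-Seq and TE was 4, 8 and 3 in quiescence, 0, 12 and 9 in pre-senescence, 11, 14 and 3 in senescence, and 3, 6 and 4 in transformation. With the other proliferating column, RNA and TE counts were 11 and 6 in quiescence, 15 and 14 in pre-senescence and 6 and 7 in transformation, TE was 9 in senescence, and Ribo-Seq was 12 in transformation. At 2-fold the counts were 0, 0 and 0 in quiescence, 2 for Ribo-Seq and 2 for TE in pre-senescence, 1, 5 and 0 in senescence, and 0, 1 and 0 in transformation. At 2 local SDs they were 0 except for 2 in TE in transformation. A pseudocount of 1 gave 1 for RNA and 3 for Ribo-Seq in transformation. Low levels, as of PARS2 and MARS2, limit how firmly a ratio can be read.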

Other observations

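Genes around the synthetases gave these values. The 3 scaffold proteins of the multisynthetase complex were all below proliferating cells of run 1 in quiescent RNA. Their log2 ratios were -0.25 for AIMP1, -0.70 for AIMP2 and -0.49 for EEF1E1. Over the proliferating column of run 2 their quiescent median was 0.16. EEF1E1 had a pre-senescent TE ratio of -2.41, from a Ribo-Seq level of 40.48 FPKM in proliferating to 9.25 in pre-senescent cells with RNA of 32.08 and 38.91.

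Of 4 genes that work beside the mitochondrial enzymes, QRSL1, PET112 and GATC encode the amidotransferase that makes mitochondrial glutaminyl-tRNA, and MTFMT formylates the initiator tRNA. Over the control of their own run, all 4 had RNA ratios below 0 in quiescence (median -0.26) and none was past 1.5-fold in any state. They were above 0 in pre-senescence, senescence and transformation (medians 0.28, 0.20 and 0.18). Over the proliferating column of the other run the medians were 0.12 in quiescence, 0.63 in pre-senescence, -0.06 in senescence and -0.17 in transformation.

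XPOT, the exporter of tRNA from the nucleus, had RNA ratios of 0.29 in quiescence, -0.30 in pre-senescence, -0.55 in senescence and -0.13 in transformation. DTD1, which removes D-amino acids from tRNA, had 0.15, 0.14, 0.64 and 0.10.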
